A study of Mus musculus with 64 samples.

Results

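The Morc genes of the mouse were followed as a family across every RNA-seq library of the series. Members were the rows of the gene tables whose symbol was Morc1, Morc2a, Morc2b, Morc3 or Morc4, which gave 5 of the 26385 genes listed, over 47 libraries. The rule used the symbols and no measured value, although the family was picked with earlier results of these data known. The question was whether other members changed when Morc1 was lost. Loss of Morc1 came from the tg allele, an insertion of a tyrosinase transgene made in FVB/N mice that removes exons 2 to 4 of Morc1. Homozygotes (Morc1 tg/tg) were compared with heterozygotes (Morc1 tg/+) and wild type (Morc1 +/+).

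MORC proteins share an ATPase domain of the GHKL type and, in most members, a CW zinc finger that reads methylated histone tails, and they act in chromatin compaction and gene silencing. MORC1 is made in germ cells and is required for spermatogenesis. MORC2 works with the HUSH complex, which silences transposons and young genes, and MORC3 is found in PML nuclear bodies and takes part in silencing through the histone chaperone DAXX. MORC4 is less well known. Rodents carry a second Morc2 gene, Morc2b, whose coding sequence has no introns.

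Sorted germ cells were from male mice at E16.5 (2 tg/+ and 2 tg/tg libraries), E18.5 (2 and 2), P2.5 (3 and 2) and P10.5 (4 and 3), where E is the embryonic and P the postnatal day. Up to P2.5 they were sorted on an Oct4-IRES-eGFP reporter in a mixed background, and at P10.5 on low side scatter, high EPCAM and no MHC class I, without the reporter. Whole testis of the Morc1 line was taken at P10.5 (1 +/+, 2 tg/+ and 3 tg/tg libraries, with 1 +/+ and 1 tg/+ library labelled preliminary) and at P14.5 (3 tg/+ and 3 tg/tg). P10.5 testis of 2 other mutants with active transposons was also sequenced. These were Dnmt3l, a cofactor of de novo DNA methylation (3 +/+, 3 +/- and 3 -/-), and Miwi2, a PIWI protein of the nuclear piRNA pathway (2 labelled het and 2 labelled KO). Each library came from 1 mouse.

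Germ cell libraries held 2413679 to 14918478 reads on genes, and testis libraries held 22509570 to 42137954. The sorted cells were made from 10 ng of RNA with another kit than the testis, so levels were not tested between them. Sertoli cell markers summed to 29.7 to 119 RPKM (reads scaled to the length of the exons and to the mapped reads of the library) in sorted germ cells and to 1755 to 4822 RPKM in testis, while germ cell markers summed to 397 to 1068 RPKM and 136 to 530 RPKM. Dnmt3l itself had 50, 50 and 66 reads in +/+, 33, 38 and 30 in +/-, and 3, 3 and 4 in -/- testis. Piwil4, the gene of MIWI2, went against its labels, since it was at 6.65 and 7.01 RPKM in the libraries labelled het and at 10.7 and 11.5 RPKM in those labelled KO. Counts were made over the whole gene, so transcript of a disrupted allele can be among them and the level need not check the label. Those libraries are called the libraries labelled Miwi2 KO throughout.

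Morc1 lies at chr16:48431350-48631018 (mm9, plus strand) and has 27 exons, all coding, with 2853 coding bases. Exons 2 (48437388-48437441), 3 (48442518-48442552) and 4 (48446426-48446494) are coding and hold 158 bases, or 5.18% of the exonic sequence, a length that leaves a remainder of 2 when divided by 3. They are shown because the counts were made over the whole gene, so that reads on the other exons still count as Morc1. The spliced run is printed with 30 bases of exon 1 before it and 30 bases of exon 5 after it, and capitals mark exons 2 to 4.
Morc1 exons 2 to 4: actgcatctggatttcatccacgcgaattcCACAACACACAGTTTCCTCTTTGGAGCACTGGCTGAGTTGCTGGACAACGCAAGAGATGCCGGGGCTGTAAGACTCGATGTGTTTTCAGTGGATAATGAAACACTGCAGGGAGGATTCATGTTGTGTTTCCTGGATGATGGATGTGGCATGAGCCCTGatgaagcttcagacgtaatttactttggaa

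Morc2a (chr11:3549497-3590480, plus strand) has 26 coding exons and 3093 coding bases, and Morc2b (chr17:33272533-33276628, minus strand) holds its 3069 coding bases in 1 exon. The coding sequences of this pair were identical at 79.9% of 3062 aligned bases, against 57.0% to 62.3% for the other pairs of members. Their most similar coding stretch of 90 bases, bases 1138 to 1227 of both, is shown because it bears on how far reads can tell the 2 genes apart. It lies at chr11:3579723-3579895 in exons 14 and 15 of Morc2a and at chr17:33274515-33274604 in Morc2b. The 2 stretches differ at 4 bases, in capitals.
Morc2a coding stretch: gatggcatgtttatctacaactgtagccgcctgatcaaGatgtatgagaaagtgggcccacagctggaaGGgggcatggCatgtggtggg
Morc2b coding stretch: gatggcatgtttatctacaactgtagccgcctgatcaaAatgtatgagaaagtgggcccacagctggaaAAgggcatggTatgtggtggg

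Over all 50-base windows of the transcripts, 24 of 5198 Morc2a windows (0.462%) came within 2 mismatches of Morc2b, the limit the reads were mapped with, and 24 of 4138 Morc2b windows (0.580%) came within 2 of Morc2a. No window of any other pair did, and the fewest mismatches there were 6. Morc3 (chr16:93832366-93876317, plus strand) and Morc4 (chrX:136356171-136406216, minus strand) have 17 coding exons each, with 2955 and 2787 coding bases.

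In the promoters listed by RefSeq (GRCm38.p6), 4 of the 5 members have entries, Morc1 being the other. Of the 2 Morc2a starts listed, the 250 bases before one hold 39 CpG sites, and 98.7% of the 32851 promoters listed hold as few or fewer (median 6), while those before the other (chr11:3658422-3658671) hold 0. Of the 2 Morc2b starts, one holds 12 CpG sites and the other, at chr17:33148750-33148999 on the minus strand, holds 0. The Morc2a start with most CpG and the Morc2b start with none are printed as the pair that differs most, and capitals mark CpG. Which start was in use in these libraries was not tested. Each gene thus has a listed start with CpG and a listed start without. The other Morc2b start follows chr17:33139684-33139933. The 2 Morc2b starts lie farther apart than the counted Morc2b (chr17:33272533-33276628 in mm9) is long. They cannot both be starts of the counted gene, and positions were not matched between the builds. The printed Morc2b stretch may thus lie outside the gene that was counted. No methylation was measured in the files used here, and the count of CpG is a description of the sequence.
Morc2a promoter with most CpG, chr11:3649187-3649436, plus strand: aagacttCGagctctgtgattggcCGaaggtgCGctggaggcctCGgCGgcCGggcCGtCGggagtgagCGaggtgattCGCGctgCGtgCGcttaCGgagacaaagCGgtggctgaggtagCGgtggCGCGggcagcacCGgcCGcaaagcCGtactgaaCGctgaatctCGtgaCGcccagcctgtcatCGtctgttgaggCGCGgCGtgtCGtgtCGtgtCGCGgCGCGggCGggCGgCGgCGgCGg
Morc2b promoter without CpG: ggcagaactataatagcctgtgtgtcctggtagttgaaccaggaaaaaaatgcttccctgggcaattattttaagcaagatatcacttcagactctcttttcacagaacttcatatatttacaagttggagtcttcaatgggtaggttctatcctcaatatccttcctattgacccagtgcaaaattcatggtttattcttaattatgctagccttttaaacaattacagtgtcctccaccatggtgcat

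In control germ cells, Morc1 was the most abundant member at E16.5 and lay below Morc3 and Morc2a at P10.5, while Morc2a stayed near one level. All levels are RPKM as deposited, which is per length of exon, so members can be set beside each other. The E16.5 tg/+ libraries held Morc1 at 36.1 and 52.9, those of E18.5 at 26.1 and 22.4, those of P2.5 at 23.8, 24.3 and 29.9, and those of P10.5 at 8.15, 10.1, 11.1 and 8.97. The means ± SD were 44.5 ± 11.9 (n = 2), 24.2 ± 2.59 (n = 2), 26.0 ± 3.43 (n = 3) and 9.57 ± 1.28 (n = 4). Counts were tested with the quasi-likelihood test of edgeR, with Benjamini-Hochberg adjusted p-values taken across every gene in the fit (called below 0.05). Of the 5 members, 1 was called from E16.5 to E18.5, where 18.7% of genes were called. Morc1 fell there by 0.85 (log2 fold change, SE 0.18, adjusted p = 0.00312 by edgeR). Without the second E16.5 tg/+ library the adjusted p was 0.0681.

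From E18.5 to P2.5 none of the 5 members was called by edgeR, where 39.1% of genes were. None passed an unadjusted p of 0.05 or was called by DESeq2 either, and the Morc1 difference was -0.08 (95% interval -0.43 to 0.27). From P2.5 to P10.5, the interval over which the sort also changed, 27.6% of genes and 1 member were called. Morc1 fell again, by 1.15 (SE 0.14, adjusted p = 1.82e-05 by edgeR), with no overlap between the ages. Sort and age cannot be told apart in this step. With all libraries in the fit, Morc1 was thus called in 2 of the 3 steps and the other members in 0 by edgeR, with Morc3 at an unadjusted p under 0.05 in the first.

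Morc2a, the HUSH partner, lay between 15.3 and 24.2 RPKM in all 20 germ cell libraries, with group means from 18.0 to 23.2. Morc3 lay between 18.1 and 40.8 RPKM, and its tg/+ means were 20.8 at E16.5, 26.7 at E18.5, 35.0 at P2.5 and 25.0 at P10.5. Its 0.40 difference from E16.5 to E18.5 had an adjusted p of 0.115 by edgeR, and without the first E18.5 tg/+ library it was called. Morc4 was low, with tg/+ means from 1.53 to 2.55 RPKM, and 1 P2.5 tg/+ library held none of its reads. Morc2b had 139 reads in all 20 germ cell libraries together, with 10 libraries at 0 and at most 37 reads in any, so its differences were not detectable at this depth.

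In order of level, E16.5 tg/+ cells had Morc1 above Morc2a and Morc3, which overlapped, then Morc4 and then Morc2b. At E18.5 Morc3 and Morc1 overlapped, with Morc2a below both. At P2.5 Morc3 was above Morc1 in all 3 libraries, and Morc1 overlapped with Morc2a. At P10.5 the order Morc3, Morc2a, Morc1, Morc4, Morc2b held in each of the 4 tg/+ libraries. Morc1 accordingly made up 50.0% ± 3.7 of the summed RPKM of the family at E16.5 and 17.3% ± 1.9 at P10.5 (SD, n = 2 and 4).

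**Figure D1:**
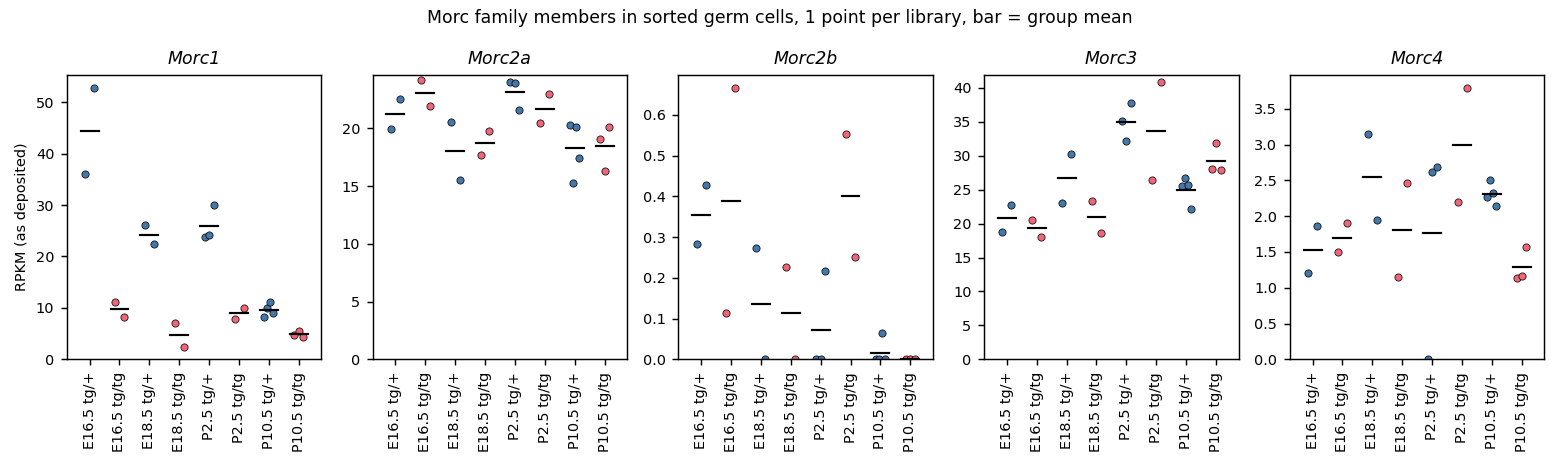
RPKM of the 5 members in sorted germ cells by stage and genotype, with 1 point per library, bars at group means, blue for tg/+ and red for tg/tg, and a separate vertical axis from 0 for each gene. Morc1 is lower in every tg/tg library than in every tg/+ library of its stage, Morc2a stays between 15.3 and 24.2, and Morc4 separates by genotype at P10.5.

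In tg/tg germ cells before birth and at P2.5, Morc1 was lower than in tg/+ in every library, and it was the 1 member called at E16.5 and at P2.5. Tg/tg libraries held it at 11.1 and 8.29 RPKM on E16.5, 7.03 and 2.38 RPKM on E18.5, and 7.82 and 10.1 RPKM on P2.5. At E16.5, 1 of 5 members was called lower, against 0.0361% of genes lower and 0.421% in either direction. This was Morc1, which the allele disrupts, and it fell by 2.25 (SE 0.14, adjusted p = 1.94e-09 by edgeR), or to 21.0% of tg/+.

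At E18.5, 0 of 4 members tested were called by edgeR, where 0.0416% of genes were called, while 1 passed an unadjusted p of 0.05 and DESeq2 called 1. That gene was Morc1, at -2.32 (SE 0.41, adjusted p = 0.139 by edgeR), and it was called in 6 of 9 alternative fits. These included leaving out either tg/+ library, while without tg/tg replicate 1 or 2 the adjusted p was 0.102 or 0.752 by edgeR, at -3.09 or -1.81. At P2.5, where 0.00694% of genes were called lower and 0.0486% in either direction, 1 of 4 was called. This was again Morc1, which the allele disrupts, and it fell by 1.56 (SE 0.24, adjusted p = 0.0257 by edgeR). It was not called by edgeR without tg/+ replicate 1, 2 or 3 (adjusted p = 0.227, 0.444 and 0.497) or without tg/tg replicate 1 (0.0679).

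The intervals of the other members at these stages show which differences the data allow. At E16.5 the Morc2a difference was 0.04 (95% interval -0.18 to 0.26), and that of Morc3 was -0.18 (-0.41 to 0.05). At E18.5 the intervals were wider, with Morc2a at 0.20 (-0.32 to 0.71) and Morc3 at -0.26 (-0.81 to 0.29). At P2.5 they were -0.12 (-0.52 to 0.27) and -0.09 (-0.49 to 0.32). Morc4, with few reads, had the wide intervals -0.53 to 0.69 at E16.5, -1.82 to 1.22 at E18.5 and -1.16 to 2.60 at P2.5. Morc2b, not tested at E18.5 and P2.5, had 0, 0 and 9 reads in P2.5 tg/+ and 9 and 10 in tg/tg, at 0 to 0.217 and 0.251 to 0.552 RPKM. Neither rise nor fall of Morc2a or Morc3 reached the threshold. The bounds are not the smallest change that would have been called, since Morc1 at E18.5, at -2.32, was not called either.

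At P10.5, Morc4 was lower in tg/tg germ cells as well as Morc1. Morc1 was at 4.77, 5.58 and 4.36 RPKM in tg/tg, below all 4 tg/+ libraries. Morc4 was at 2.27, 2.50, 2.33 and 2.14 RPKM in tg/+ and at 1.14, 1.17 and 1.56 in tg/tg, without overlap. Of 4 members tested, 2 were called, both lower, where 5.79% of genes were called lower and 12.2% in either direction. Morc1, which the allele disrupts, is 1 of the 2, and Morc4 is the other. Morc1 fell by 1.05 (SE 0.14, adjusted p = 6.97e-06 by edgeR), to 48.4% of tg/+. Morc4 fell by 0.92 (SE 0.19, adjusted p = 0.00184 by edgeR), to 52.8% of tg/+. Each library left out in turn kept the Morc4 call, but in a fit of all germ cell libraries together it had an adjusted p of 0.774 at nearly the same difference of -0.93.

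Morc3 at P10.5 was the other member whose genotypes did not overlap, at 25.5, 26.7, 25.6 and 22.2 RPKM in tg/+ and 28.0, 31.9 and 27.8 in tg/tg. The Morc3 difference of 0.14 (95% interval -0.02 to 0.31) was not called (adjusted p = 0.261 by edgeR). Morc2a was at -0.06 (-0.25 to 0.14). Morc2b had 4 reads in 1 tg/+ library and 0 in the other 6. The share of all genes without overlap was not counted at P10.5, so the separation of Morc1, Morc3 and Morc4 in RPKM is a description.

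Markers of the stages of germ cell development moved in the same P10.5 germ cells. Of 8 early meiosis genes 5 were lower and 0 higher, and their summed RPKM was 171 to 193 in tg/+ and 143 to 149 in tg/tg. Of 5 genes of differentiating spermatogonia 3 were lower (134 to 162 against 91.3 to 108), and of 7 of undifferentiated spermatogonia 4 were higher (117 to 129 against 159 to 192). Of 8 Sertoli cell genes 3 were lower (70.4 to 119 against 47.6 to 93.9), and of 5 peritubular genes 2 were higher. In these bulk samples, fewer cells of a type and less RNA per cell cannot be told apart. The part of these shifts in the Morc4 difference was not tested.

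The effect of genotype on Morc1, which the allele disrupts, was smaller at P10.5 than at E16.5. Sort and reporter background also differ between these ages and cannot be told apart from age. The difference between the log2 fold changes was 1.21 (SE 0.21, adjusted p = 0.00183 by edgeR), where 1.71% of genes (0.893% with a positive difference) and 1 of 5 members were called. The tg/tg mean went from 9.72 ± 2.02 RPKM (n = 2) to 4.90 ± 0.622 (n = 3) between these ages, and the tg/+ mean from 44.5 to 9.57. For Morc4 the difference was -0.99 (SE 0.35, adjusted p = 0.160 by edgeR), so that its lower level at P10.5 was not shown to differ from the earlier stage. Morc3 had 0.33 (adjusted p = 0.253 by edgeR).

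Whole testis at P10.5 added Morc2a and Morc3 to the members lower in tg/tg, by less than Morc1 and Morc4. Morc1 was at 10.2 RPKM in the +/+ library, at 6.29 and 6.46 in tg/+ and at 2.41, 2.06 and 2.32 in tg/tg. Morc2a was at 25.5 in +/+, at 27.3 and 25.0 in tg/+ and at 22.5, 21.0 and 21.1 in tg/tg. For Morc3, controls lay between 21.4 and 23.0 and tg/tg at 20.1, 19.12 and 18.2. Morc4 was at 2.14 in +/+, at 2.07 and 1.81 in tg/+, and at 1.25, 1.04 and 1.14 in tg/tg. None of these 4 genes overlapped between tg/tg and controls, though how many of all genes separate likewise was not counted. Morc2b was not tested, having at most 1 read in any of these libraries.

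All 4 members tested were called lower, where 9.26% of genes were called lower and 15.3% in either direction. Leaving out Morc1, which the allele disrupts, the members' median log2 fold change was -0.25, that of Morc2a, beside 0.01 over all genes tested. Morc1 fell by 1.74 (SE 0.17, adjusted p = 0.000153 by edgeR) and Morc4 by 0.80 (SE 0.11, adjusted p = 0.000869). The controls here include a +/+ library, which held more Morc1 than tg/+, while the other tg/tg comparisons used tg/+ alone. With 1 library left out, the Morc1 difference ranged from -1.86 to -1.48. Morc2a fell by 0.25 (SE 0.05, adjusted p = 0.0112 by edgeR), to 83.9% of controls. Morc3 fell by 0.20 (SE 0.05, adjusted p = 0.0340 by edgeR), to 87.3%. The Morc2a call was lost without tg/tg replicate 3 (adjusted p = 0.0693 by edgeR), and a replicate block ended the Morc2a and Morc3 calls. Only 5 of 13 alternative fits called Morc3. Leaving out the +/+ library, tg/+ replicate 2 or 3, or tg/tg replicate 2 or 3 ended that call.

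Some germ cell markers differed by genotype in the same testes. Fewer cells of a type and less RNA per cell cannot be told apart here either. All 8 early meiosis genes were lower, their summed RPKM being 104 to 108 in controls and 49.9 to 55.2 in tg/tg. All 5 genes of differentiating spermatogonia were lower, as were 3 of 6 general germ cell genes (261 to 268 against 173 to 197). Of 7 genes of undifferentiated spermatogonia 0 were called (edgeR), and 4 of 8 Sertoli cell genes were higher. None of these markers was at 0 in any group. The part of these shifts in the lower Morc2a, Morc3 and Morc4 was not tested.

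With a single tg allele, Morc1 was lower than in +/+ and was the 1 member called of the 4 tested. With the preliminary libraries and the batch in the fit, Morc1 was at 10.4 and 10.2 RPKM in +/+ and at 6.11, 6.29 and 6.46 in tg/+. It fell by 0.70 (SE 0.08, adjusted p = 0.00144 by edgeR), to 61.7% of +/+. This comparison called 2 of 15290 genes (0.0131%, with 0.00654% lower), and the call among the members was that of Morc1. Without tg/+ replicate 3 the genes called were 441. The call was lost without the later +/+ library (adjusted p = 0.0881 by edgeR), at a difference of -0.72. Morc2a differed by 0.03 (95% interval -0.10 to 0.17), Morc3 by 0.04 (-0.09 to 0.18) and Morc4 by 0.01 (-0.25 to 0.28). Both +/+ libraries carry the same replicate number, and the labels do not say that they came from different mice.

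At P14.5, when control testes hold cells in later meiosis, Morc2b was present in tg/+ and all but absent from tg/tg. It had 486, 335 and 669 reads in tg/+ (4.34, 2.76 and 6.35 RPKM) and 2, 0 and 0 reads in tg/tg. Scaled to the reads on genes, the ratio of tg/+ to tg/tg was 713 (95% counting interval 197 to 5892, from 1490 against 2 reads). Both reads were in tg/tg replicate 1, so that the ratio rests on that library. By edgeR, Morc2b was called lower in tg/tg (adjusted p = 6.64e-05), as in each of the 11 alternative fits. In these P14.5 tg/tg libraries Morc2a was at 29.8 to 33.4 RPKM, and 0.462% of Morc2a windows come within 2 mismatches of Morc2b. Reads were kept only where they mapped to 1 place. Whether any read of 1 gene was counted for the other was not tested.

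The other members at P14.5 moved less. Morc1 was at 8.28, 7.73 and 8.77 RPKM in tg/+ and 3.49, 2.63 and 3.01 in tg/tg. Morc2a was at 38.9, 37.4 and 38.1 in tg/+ and 33.4, 30.2 and 29.8 in tg/tg. Morc4 was at 2.26, 2.23 and 2.06 against 1.70, 1.68 and 1.67. These 3 genes did not overlap between genotypes, a description without a share over all genes. Of 5 members, 4 were called, all lower, where 20.1% of genes were called lower and 34.8% in either direction. The 4 include Morc1, which the allele disrupts, and the others were Morc2a, Morc2b and Morc4. Morc1 fell by 1.43 (SE 0.11, adjusted p = 0.000102 by edgeR) and Morc2a by 0.28 (SE 0.05, adjusted p = 0.00464). Morc4 fell by 0.37 (SE 0.10, adjusted p = 0.0203 by edgeR), a call lost without tg/+ replicate 1 or 2 or tg/tg replicate 1 or 3. Morc3 overlapped, at 22.7, 22.5 and 20.0 against 21.6, 19.3 and 20.2, and was at -0.08 (95% interval -0.22 to 0.05).

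Meiotic markers were far apart between these testes. All 8 early meiosis genes were lower in tg/tg, with sums of 398 to 553 RPKM in tg/+ and 125 to 151 in tg/tg. All 6 pachytene genes tested were lower as well, at 191 to 389 against 37.7 to 42.9, and all 8 Sertoli cell genes were higher. The part of these shifts in the member differences was not tested.

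With age, Morc2b also appeared in controls. Of the 5 members, 3 were called higher at P14.5 than at P10.5 in tg/+ testis, where 25.4% of genes were called higher and 51.4% in either direction. Morc2b had 1 read in the 2 P10.5 tg/+ libraries and 1490 in the 3 of P14.5, a ratio of 1056 that rests on that 1 read (95% counting interval 189 to 41727, adjusted p = 2.19e-05 by edgeR). Over all 21 P10.5 testis libraries of the 3 lines it had 10 reads, with 14 libraries at 0. Morc2a rose by 0.53 (SE 0.06, adjusted p = 0.000172 by edgeR) and Morc1 by 0.36 (SE 0.09, adjusted p = 0.00862). All 8 early meiosis and all 7 pachytene genes rose over the same interval. These tg/+ libraries are also the controls of the genotype comparisons, so the comparisons are not independent.

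Whether the effect of genotype differed between P14.5 and P10.5 testis was tested directly. By edgeR 0 of 5 members were called, where 8.22% of genes were, 1 passed an unadjusted p of 0.05, and DESeq2 called 1. Morc4 had a difference of 0.43 (SE 0.14, adjusted p = 0.0842 by edgeR). Morc2b, the gene DESeq2 called, had no usable estimate in edgeR (SE 218 on the log2 scale), since its P10.5 levels are at or near 0 in both genotypes. Morc1 had 0.30 (95% interval -0.20 to 0.80), and 0.0368 without the P10.5 +/+ library, whose genotype has no counterpart among the P14.5 controls.

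**Figure D2:**
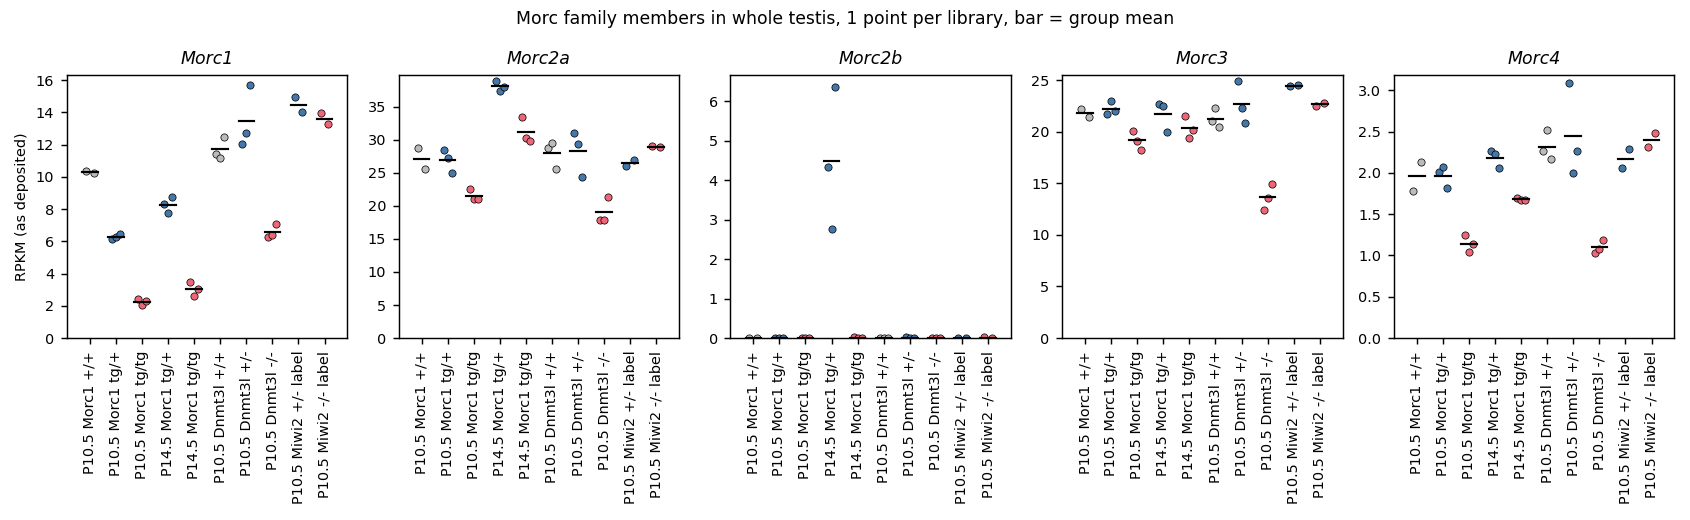
RPKM of the 5 members in whole testis by line, age and genotype, with 1 point per library (preliminary ones included), bars at group means, gray for +/+, blue for heterozygous and red for homozygous labels, and a separate vertical axis from 0 for each gene. Morc2b stands above 2 RPKM in the P14.5 tg/+ libraries alone, Morc1 is at 2.06 to 3.49 in all tg/tg libraries, and Morc1, Morc2a, Morc3 and Morc4 are lower in Dnmt3l-/- testis.

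In Dnmt3l-/- testis at P10.5, where Morc1 is intact, the same 4 members were lower. Morc1 was at 11.4, 11.2 and 12.5 RPKM in +/+, 12.0, 12.7 and 15.7 in +/-, and 6.28, 6.41 and 7.04 in -/-. Morc3 lay between 20.5 and 24.9 in the 6 controls and at 12.4, 13.5 and 14.9 in -/-. Morc2a lay between 24.4 and 31.0 in controls and at 17.9, 17.9 and 21.4 in -/-, and Morc4 between 2.00 and 3.09 against 1.03, 1.08 and 1.19. No -/- library of these genes overlapped with a control, and the share of all genes of which this holds was not counted.

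All 4 members tested were called lower, where 29% of genes were called lower and 53.9% in either direction. Morc4 fell by 1.07 (SE 0.14, adjusted p = 4.61e-05 by edgeR), to 47.7% of controls. Morc1 fell by 0.89 (SE 0.11, adjusted p = 3.21e-05 by edgeR), to 53.9%. Morc3 fell by 0.64 (SE 0.07, adjusted p = 2.14e-05 by edgeR) and Morc2a by 0.51 (SE 0.08, adjusted p = 0.000256). The 4 calls held in each of the 16 alternative fits. Early meiosis genes summed to 90.4 to 158 RPKM in controls and 33.5 to 47.1 in -/- (8 of 8 lower), and 5 of 6 general germ cell genes were lower and 1 higher. Of 8 Sertoli cell genes 6 were higher. Their part was not tested.

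Set against the Morc1 mutants, Morc3 fell more in Dnmt3l-/- testis. The difference between the 2 effects was -0.40 for Morc3 (SE 0.10, adjusted p = 0.0103 by edgeR). For Morc1, the gene the tg allele disrupts, it was 0.90 and is given as a description. With Morc1 counted, 2 of 4 members and 17.6% of genes were called (8.14% with a positive and 9.45% with a negative difference). The differences for Morc2a, -0.21 (95% interval -0.44 to 0.02), and Morc4, -0.22 (-0.61 to 0.18), were not called. Line and mutation cannot be told apart here. In Dnmt3l +/- against +/+ testis, 0 of 4 members were called by edgeR, where 0.00651% of genes were, 0 passed an unadjusted p of 0.05 and DESeq2 called 0.

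In the libraries labelled Miwi2 KO, no member was called without a replicate block. Morc1 was at 14.9 and 14.0 RPKM in the libraries labelled het and at 13.95 and 13.2 in those labelled KO. Morc2a was at 26.0 and 26.95 against 29.0 and 29.0. Morc3 was at 24.4 and 24.5 against 22.5 and 22.8, and Morc4 at 2.05 and 2.28 against 2.31 and 2.48. None of these 4 genes overlapped between the labels. With 2 libraries per label this is a description, since the share of all genes without overlap was not counted. By edgeR 0 of 4 were called, where 1.23% of genes were, with 0 at an unadjusted p of 0.05 and 0 by DESeq2. The 95% intervals for the log2 fold changes were -0.25 to 0.04 for Morc1, -0.04 to 0.26 for Morc2a, -0.27 to 0.02 for Morc3 and -0.11 to 0.36 for Morc4. A fit with the replicate number as a block called Morc2a and Morc3. That fit called 4503 genes in all, in place of 197, so the 1.23% is not its share. None of the 8 early meiosis or 6 general germ cell genes was called there by edgeR.

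**Figure D3:**
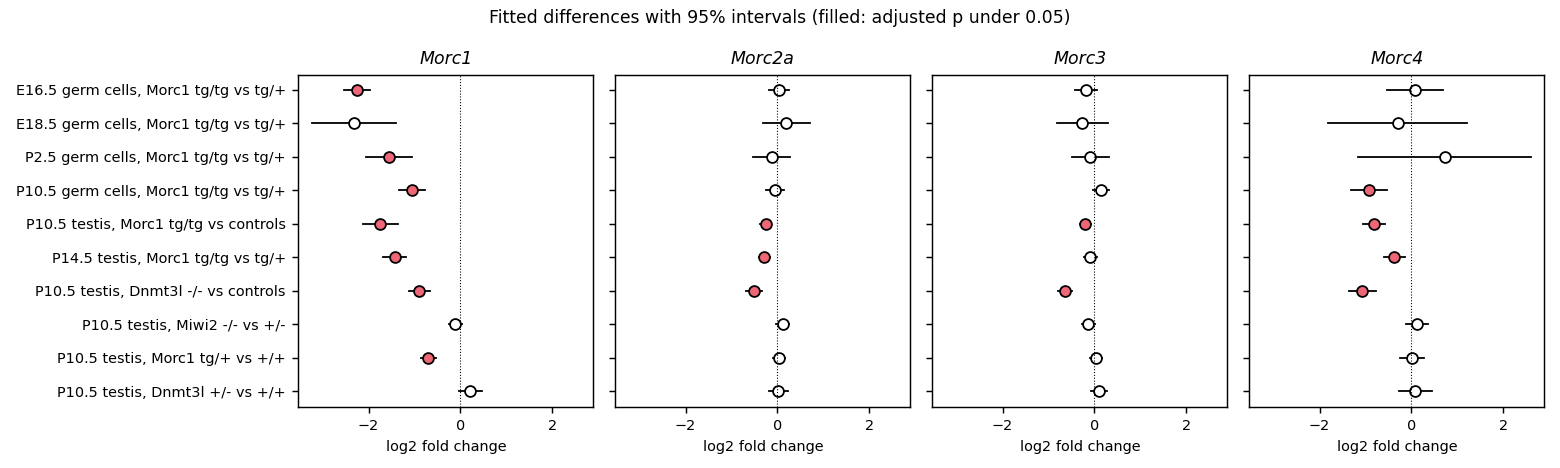
Fitted log2 fold changes of Morc1, Morc2a, Morc3 and Morc4 in 10 comparisons, with lines for 95% intervals and filled points where the adjusted p was under 0.05. The Miwi2 row follows the sample labels, Morc1 is filled in all tg/tg rows but E18.5, and Morc2a and Morc3 are filled in whole testis rows alone.

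The make-up of the family shifted accordingly. Summed over members, tg/+ germ cells had 88.4 ± 17.1 RPKM at E16.5 (SD, n = 2) and 55.2 ± 3.5 at P10.5 (n = 4), and tg/tg cells had 54.2 ± 4.7 and 53.9 ± 1.0 (n = 2 and 3). In tg/+ testis, Morc2a led with 45.9% of the sum at P10.5 and 51.0% at P14.5, and Morc1 held 11.2% and 11.05%. In tg/tg testis Morc1 held 5.1% and 5.4%. Reads on exons outside 2 to 4 still count as Morc1, so tg/tg sums and shares include transcript of the disrupted allele. At P14.5 tg/+, Morc2b held 6.0% ± 2.3 and stood above Morc4 in all 3 libraries. In each P10.5 testis library of the Morc1 line, the order was Morc2a, Morc3, Morc1, Morc4, Morc2b.

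**Figure D4:**
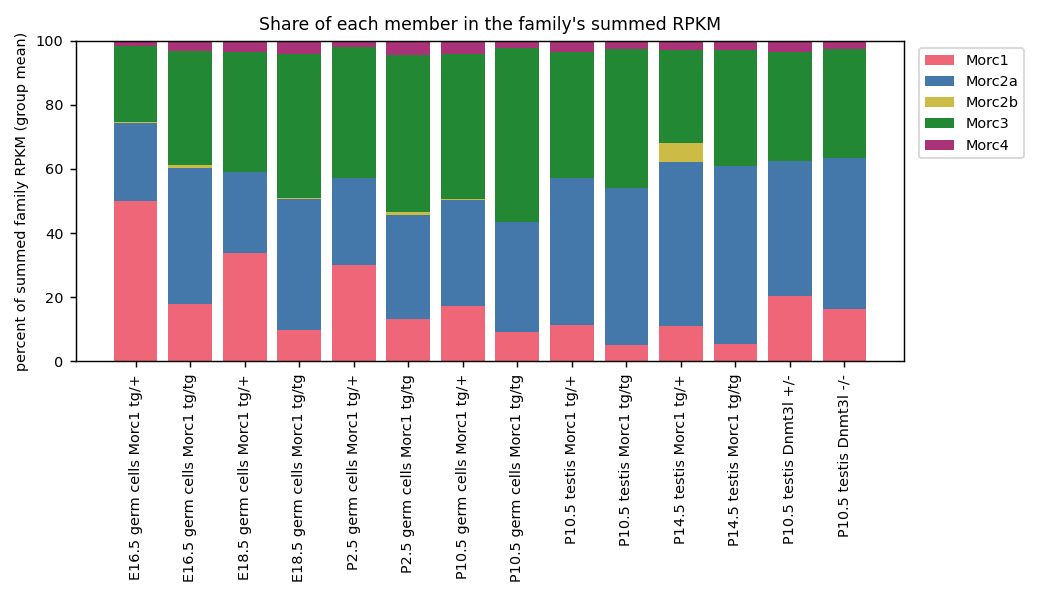
Share of each member in the summed RPKM of the family, in percent as the group mean, for the tg/+, tg/tg and Dnmt3l groups. Morc1 goes from 50.0% in E16.5 tg/+ germ cells to 17.3% at P10.5, and the Morc2b band is wide in P14.5 tg/+ testis alone (6.0%).

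Genes of chromatin or transposon silencing, or with a domain like those of MORC proteins, were read from 4 lists. They were the HUSH complex with SETDB1 and its partners (6 genes), other genes with a GHKL ATPase or CW domain (4), the DAXX, ATRX, PML and H3.3 genes (5), and germline transposon silencing genes (10). In tg/tg germ cells at E16.5, E18.5 and P2.5, 0 genes of these lists were called by edgeR. In P10.5 germ cells, 2 of 6 HUSH genes were higher, the HUSH subunit gene Pphln1 by 0.33 and Trim28, the KAP1 corepressor, by 0.24 (log2 fold changes). Of 9 transposon silencing genes tested 1 was higher, Piwil2 (MILI) by 0.24, and 0 genes of the other 2 lists were called. These counts stand beside 12.2% of all genes called. The Trim28 call was lost in 7, the Piwil2 call in 8 and the Pphln1 call in 1 of the 12 alternative fits.

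In P10.5 tg/tg testis, the HUSH reader gene Mphosph8 fell by 0.40, and it was the 1 HUSH gene of 6 called. Of the GHKL and CW genes, the histone readers Zcwpw2 and Zcwpw1 fell by 0.93 and 0.64. Of the transposon silencing genes 7 of 10 were lower, beside 9.26% of all genes, with Mael, which is also on the germ cell list, down by 0.48, Uhrf1 by 0.45 and the helicase gene Tdrd9 by 0.45. None of the 5 DAXX, ATRX, PML and H3.3 genes was called by edgeR. The Mphosph8 and Zcwpw2 calls were each lost in 1 of 13 alternative fits. In P14.5 tg/tg testis Zcwpw2 fell by 1.58, Zcwpw1 by 0.80 and Smchd1, which acts in X inactivation, by 0.25. There Mphosph8 fell by 0.56, Setdb1 by 0.34 and Trim28 by 0.26, while Atrx and Pml rose by 0.43 and 0.27. The transposon silencing genes Tdrd9, Mov10l1 and Piwil2 fell by 1.35, 1.25 and 1.02, with 5 of 10 lower and 1 higher. All 4 lists together stand there beside 20.1% of all genes lower and 34.8% called in either direction. The Smchd1 call was lost in 4 and the Pml call in 2 of the 11 alternative fits.

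In Dnmt3l-/- testis, all 4 GHKL and CW genes were lower, among them Zcwpw1 by 1.17 and Smchd1 by 0.69. Of 6 HUSH genes 3 were lower, among them Mphosph8 by 0.84 and Trim28 by 0.16, the latter call lost in 9 of 16 alternative fits. Of 10 transposon silencing genes, Dnmt3l included, 9 were lower. Over all genes 29% were lower there and 53.9% were called. Of the DAXX, ATRX, PML and H3.3 genes 1 of 5 was higher, the H3.3 gene H3f3b by 0.69. In the libraries labelled Miwi2 KO, where 1.23% of genes were called, 3 of the 10 transposon silencing genes were higher, Piwil2 by 1.66, Piwil4 by 0.69 (lost in 1 of 9 alternative fits) and Tdrd9 by 0.34 (lost in 4 of 9), and 0 of the other 3 lists were called by edgeR. From P10.5 to P14.5 in control testis, Zcwpw2 and Zcwpw1 rose by 1.80 and 1.02, Mphosph8 by 0.58 and Setdb1 by 0.49. Of the transposon silencing genes called there, those with the largest changes were Tdrd9, Mov10l1 and Piwil2, which rose by 1.38, 1.28 and 1.04. The rest of that list is not given for this interval, and the part of age in the tg/tg falls was not tested. Over the same interval Atrx fell by 0.81, H3f3b by 0.47, Pml by 0.45 and Atf7ip, a SETDB1 partner, by 0.23, so that 4 of the 5 DAXX, ATRX, PML and H3.3 genes were lower and 1 higher, and 1 of 6 HUSH genes was lower and 2 higher, beside 51.4% of all genes called. The Atf7ip call was lost in 2 of 10 alternative fits.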

How the data were processed

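Whole-gene counts and RPKM of 47 RNA-seq libraries were used as deposited. The authors trimmed reads to 50 bases, mapped them uniquely to mm9 with at most 2 mismatches, and counted reads per gene (Bowtie and HTSeq, per the labels' processing notes, with no version given). The deposited RPKM values were used for levels and the deposited counts for tests. The authors had tested with DESeq. Here edgeR 4.0.16 (R 4.3.3) scaled the counts by TMM, dropped low genes by filterByExpr and tested each of 17 comparisons by quasi-likelihood, on its own groups. Batch was a term where preliminary libraries entered. Checks used DESeq2 1.42.0 (Wald test), its size factors, no filter, a replicate block, all libraries of a kit in 1 fit, other control sets and leaving out each library. The fits were tested on simulated data.

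Members and lists (silencing pathways and shared domains, germ cell stages and testis cell types) were chosen with earlier results of these data known. All members were named, with at most 3 called genes per pathway list by size of change, at most 3 per marker list, and the 3 genes closest to each member in pattern. Libraries of a group were separate mice, and counts of no pair of libraries in a group agreed within sampling noise. Reads on genes ranged from 2413679 to 42137954 per library. Counting intervals, exact for Morc2b ratios, cover counting error only. The 4 small RNA libraries were not used here.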

Additional observations from a re-analysis of the deposited data

Results flagged for a closer look

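The Morc1 difference between tg/tg and tg/+ germ cells was smaller at P10.5 than at E16.5, with a tested difference of 1.21 between the log2 fold changes. Sort and reporter background changed between these ages as well. In P10.5 testis the effect of Dnmt3l loss differed from that of Morc1 loss by -0.40 for Morc3 on the log2 scale, also tested. The value for Morc1, the gene the tg allele disrupts, was 0.90 and is a description.

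One germ cell library stood apart for Morc2b. Among the 4 P10.5 tg/+ libraries, 1 held 4 reads and the others 0, so the gap to the nearest library was the whole range (ratio 1.0). With 3 libraries at 0 the ratio is 1.0 for any read in the other, so the rate of about 1 in 20 that chance gives elsewhere does not apply. The value rests on 4 reads.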

How the results depend on the processing

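Of 382 log2 fold changes of members under alternatives other than leaving out a library, 367 kept their direction and their side of the threshold, 5 lost the call, 7 gained it and 3 reversed. Morc2b at E16.5 went from 0.02 to -0.31 with the replicate block, and the Morc2a testis interaction from -0.04 to 0.0135 without the filter and to 0.0037 with the block. Members called rose from 0 to 1 at E18.5 in germ cells without the filter, by DESeq2, with the block and in the fit of all libraries of the kit. They went from 2 to 1 in P10.5 germ cells in the last fit, from 4 to 2 in P10.5 testis with the block (adjusted p by edgeR 0.0509 for Morc2a and 0.105 for Morc3), from 0 to 2 in the Miwi2 comparison with the block (0.0456 for Morc2a and 0.0209 for Morc3), and from 0 to 1 in the testis interaction by DESeq2. The causes were not tested.

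With 1 library left out, 464 of 514 log2 fold changes kept direction and call, 16 lost the call, 5 gained it and 29 reversed. Members called then ranged over 0 to 1 at E18.5 and P2.5 in germ cells, 2 to 4 in P10.5 and 3 to 4 in P14.5 testis, 0 to 1 for tg/+ against +/+, 0 to 2 from E18.5 against E16.5 and 0 to 1 from P2.5 against E18.5 in control germ cells, and 0 to 1 in the testis interaction, where Morc4 was called without P10.5 tg/+ replicate 3 (adjusted p = 0.0461 by edgeR). Ranges of log2 fold changes that crossed 0 were, at E16.5, -0.0199 to 0.10 (Morc2a), -1.72 to 0.85 (Morc2b) and -0.11 to 0.30 (Morc4), at E18.5, -0.0392 to 0.40 (Morc2a), -0.54 to 0.0731 (Morc3) and -1.15 to 0.22 (Morc4), at P2.5, -0.37 to 0.14 (Morc3), and at P10.5, -0.15 to 0.0491 (Morc2a). In testis they were -0.0072 to 0.0638 (Morc2a) and -0.13 to 0.21 (Morc4) for tg/+ against +/+, and -0.0481 to 0.11 (Morc2a) and -0.11 to 0.22 (Morc4) for Dnmt3l +/- against +/+. With age in control germ cells they were -0.15 to 0.0067 (Morc1), -5.74 to 4.90 (Morc2b) and -0.0903 to 0.53 (Morc3) from E18.5 to P2.5, and -4.80 to 3.01 (Morc2b) from P2.5 to P10.5. For Morc2a they were -0.18 to 0.0079 in the germ cell and -0.082 to 0.0356 in the testis interaction.

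Counts of genes called moved by over 1.5 times with some settings. At E16.5 the 70 became 180 without the filter, 174 with the block and 8 in the fit of the whole kit, at E18.5 the 6 became 83, 46 and 619 (290 by DESeq2), and at P2.5 the 7 became 27, 28 and 79 (21 by DESeq2). The 1712 of P10.5 germ cells became 125 and the 2326 of P10.5 testis 1342 in the fit of the whole kit, and the latter 1171 with the block. The 197 of the Miwi2 comparison became 4503 with the block, 391 by DESeq2 and 87 in the whole kit. For tg/+ against +/+ the 2 became 119 without the filter and 5 by DESeq2, for Dnmt3l +/- against +/+ the 1 became 2 by DESeq2, 0 with the block and 3 in the whole kit, and for the germ cell interaction the 290 became 507 without the filter and 437 by DESeq2. Single libraries moved these counts as well, and with them the shares set beside the members. The 70 of E16.5 became 171 without tg/tg replicate 2. The 6 of E18.5 became 190 and 59 without tg/+ replicate 1 and 2 and 0 without either tg/tg replicate (edgeR). The 7 of P2.5 became 1, 0 and 0 without tg/+ replicate 1, 2 and 3 and 70 without tg/tg replicate 2. The 2326 of P10.5 testis became 1247 without tg/+ replicate 3, and 1533 and 922 without tg/tg replicate 2 and 3. The 5323 of P14.5 testis became 3517 without tg/+ replicate 3, and the 2 of tg/+ against +/+ became 441 without tg/+ replicate 3. The 197 of the Miwi2 comparison became 340 to 952, and the 1 of Dnmt3l +/- against +/+ became 0 when any 1 of the +/+ libraries or +/- replicate 1 or 3 was left out. From E16.5 to E18.5 in control germ cells, 3151 became 2008 and 1731 without E16.5 replicate 1 and 2 and 4795 without E18.5 replicate 1. In the interactions, 290 (germ cells) became 130 and 149 without E16.5 tg/tg replicate 1 and 2, 1287 (testis) became 772 without P14.5 tg/+ replicate 3, and 2797 (Dnmt3l against Morc1) became 1755, 1753 and 1817 without the Morc1 +/+ library, tg/tg replicate 1 and Dnmt3l-/- replicate 2.

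Same-numbered libraries of the groups compared had correlations of -0.370 to 0.348 between their deviations from group means. In no comparison with 3 pairs were all over 0.1, so the libraries were taken to share only a number. For the Miwi2 comparison this is an assumption. Its 2 pairs share 1 value, 0.321, as 2 pairs must, so the value cannot decide on pairing. The block moved the genes called there from 197 to 4503. For tg/+ against +/+ of the Morc1 line alone, no paired analysis was possible because these libraries shared fewer than 2 numbers. Morc2b and Morc4 had few reads in germ cells, and Morc2b also had only 10 in all P10.5 testis libraries together.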

Other observations

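Over the means of the 10 control groups, on a log2(RPKM + 1) scale with both kits mixed, the genes whose pattern was closest to each member were found among 16544 genes by Pearson's r, as a description across group means that share kit and age. For Morc1 they were Raet1d (r = 0.97), Cd164l2 (0.96) and Ubash3b (0.96), and for Morc2a Gm10638 (0.97), Gpr55 (0.96) and Lactb (0.96). Morc2b had Pbp2, 1700029M20Rik and 4922505G16Rik, all at 0.99. Morc3 had Gm10497, A430018G15Rik and Fam166a, all at 0.96, and Morc4 had Adam15 (0.94), Sec14l2 (0.94) and Vsig10l (0.91). By Spearman's rho, 1 of the 3 genes of Morc1 and 0 of the 3 of each other member remained.

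Among the other cell type lists, P10.5 tg/tg testis had 3 of 5 macrophage, 2 of 4 endothelial and 2 of 5 peritubular genes higher, with 0 of 5 Leydig cell and 0 of 4 blood genes called by edgeR, beside 15.3% of all genes. At P14.5, where 34.8% of genes were called, 1 of 5 peritubular genes was higher and 0 of 5 Leydig cell, 0 of 5 macrophage, 0 of 4 endothelial and 0 of 4 blood genes were called. In P10.5 tg/tg germ cells (12.2% of genes called) 1 of 2 blood genes tested was lower, and 0 of 1 Leydig cell, 0 of 3 macrophage and 0 of 4 endothelial genes were called. Dnmt3l-/- testis, with 53.9% of genes called, had 1 of 5 Leydig cell, 3 of 5 peritubular, 1 of 5 macrophage and 2 of 4 endothelial genes higher and 0 of 5 blood genes called.

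Some genes of the transposon silencing list moved widely with age in control germ cells. From E18.5 to P2.5, Dnmt3l fell by 3.94 and Uhrf1, a partner of maintenance DNA methylation, rose by 3.44 (log2 fold changes). These genes were named for the size of their change, and the rest of the list is not given. No member of the Morc family was called in this step, where 39.1% of all genes were.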
